A study of Rattus norvegicus with 6 samples.

Results

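The genes of protein folding in the endoplasmic reticulum (ER) and of the unfolded protein response were examined in rat calvarial bone defects, holes in the roof of the skull, filled with one of 2 hydrogels. They are 35 genes fixed by name (chaperones, disulfide isomerases, the translocon, degradation factors, stress sensors and their targets), and all 35 were found by symbol among the 34045 genes of the deposited table. Bulk RNA was sequenced from 3 libraries of defects that had received the CGG hydrogel and 3 that had received the CGG-Cit hydrogel, all from wild type male Sprague-Dawley rats at week 4 after surgery. The labels spell out neither gel name, give no age and include no defect without a gel, so each comparison is between the gels. Since no label says that the libraries of a group came from separate rats, the p-values describe the spread between libraries alone, and that spread may be technical. The series title names a metabolite of the tricarboxylic acid cycle, neutrophils, stromal cell recruitment and histone acetylation, and does not name the ER.

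Secreted and membrane proteins enter the ER through the Sec61 channel, are folded there by chaperones such as BiP (Hspa5) and by disulfide isomerases, and are returned to the cytosol for destruction when folding fails. A load of unfolded protein is sensed by IRE1 (Ern1), PERK (Eif2ak3) and ATF6 (Atf6), which act through spliced Xbp1 messenger RNA, through translation of Atf4, and through cleavage of Atf6 itself, and which raise chaperone genes and, under lasting stress, Ddit3. Osteoblasts, fibroblasts and plasma cells make much secreted protein and depend on this machinery. Splicing of Xbp1, translation of Atf4 and cleavage of Atf6 are not read by a gene's total RNA, which is what was measured here.

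The promoters of many chaperone genes carry the ER stress response element (ERSE), to which ATF6 and XBP1 can bind. Of the 35 members 29 have an entry in the RefSeq promoter table (GRCr8, 250 bases before to 50 after each start). The ERSE, spelled CCAAT, then 9 bases of any kind, then CCACG, and searched on both strands, occurred in 7 of these 29 members, and in 0.0657% of all 33469 windows of the same length. They are shown because they pick out members, most of them chaperones, whose RNA levels are taken up again as a group. The motifs that follow were also searched on both strands. Each line is written 5′ to 3′ on the strand that reads CCAAT, with the match in capitals and its neighbouring bases in lower case.
Hspa5 (chr3:38452953-38453011, plus strand): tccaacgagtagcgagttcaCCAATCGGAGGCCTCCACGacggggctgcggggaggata
Hsp90b1 (chr7:23012327-23012385, plus strand): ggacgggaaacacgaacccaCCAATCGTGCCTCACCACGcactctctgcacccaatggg
Hsp90b1 (chr7:23012431-23012489, minus strand): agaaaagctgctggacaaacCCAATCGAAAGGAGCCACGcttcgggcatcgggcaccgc
Dnajc3 (chr15:102432514-102432572, plus strand): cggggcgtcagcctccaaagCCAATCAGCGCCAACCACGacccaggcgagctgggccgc
Creld2 (chr7:121789219-121789277, minus strand): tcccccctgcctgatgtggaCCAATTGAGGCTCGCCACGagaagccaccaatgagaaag
Calr (chr19:40213117-40213173, minus strand): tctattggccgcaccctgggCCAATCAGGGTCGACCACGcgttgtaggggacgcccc
Canx (chr10:35158049-35158107, minus strand): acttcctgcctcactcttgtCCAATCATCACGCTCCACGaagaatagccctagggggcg
Xbp1 (chr14:84604538-84604596, plus strand): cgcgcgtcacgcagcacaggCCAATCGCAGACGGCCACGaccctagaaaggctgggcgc
The shorter ERSE-II, spelled ATTGG, then 1 base of any kind, then CCACG, occurred in 3 members, Hyou1 (2 matches), Dnajb11 and Herpud1, and in 0.0508% of all windows. The UPRE letters TGACGTGG, linked to XBP1, occurred in 1 member, Hyou1, where they overlap an ERSE-II match, and in 0.595% of all windows. The letters TGATGNAA, the core of a composite ATF4 and C/EBP element, occurred in Herpud1 and Trib3 and in 3.98% of all windows. The ERSE-II match of Herpud1 and its ATF4 and C/EBP match lie apart in the same window, and both are shown, each on the strand that reads it as spelled, because no other member held a match to both.
Herpud1 (chr19:10614801-10614851, minus strand): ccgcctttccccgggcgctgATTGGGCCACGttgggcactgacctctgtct
Herpud1 (chr19:10614864-10614911, plus strand): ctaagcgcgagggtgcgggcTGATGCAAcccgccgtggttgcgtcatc

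Most of this machinery differed little in RNA level between the gels. Of the 35 members, 3 rose in CGG-Cit (Ddit3, Creb3l2 and Sel1l) and 1 fell (Sec61g), by limma at a Benjamini-Hochberg adjusted p under 0.05. That is 11.4% of the members, against 17.5% of the 15965 genes tested (7.75% higher and 9.78% lower). The log2 fold change, computed on log2(FPKM + 1) and positive where CGG-Cit was higher, had a median of 0.03 over the members and of 0.00 over all genes tested. Its absolute size was under 0.3 in 29 of 35 members (82.9%), against 53% of all genes tested, and the median absolute size was 0.13 in the members and 0.28 in all genes. The groups did not overlap in 10 members that were higher in CGG-Cit and in 4 that were lower, against 19.6% and 22.1% of all genes (41.7% in either direction). An unadjusted p under 0.05 by limma was held by 9 of the 35 members and by 5644 of the 15965 genes tested. Unadjusted counts of this fit given below are to be read beside that number. All members passed the filter on low values, a mean of at least 0.5 FPKM (fragments per kilobase of a gene's length, divided by a size factor of the library). With values rescaled to TPM the median of all genes stood at 0.16 in place of 0.00, and that of the members at 0.21. Then 6 members were higher and 1 lower, with Hspa5, Pdia3 and Edem1 added, and of all genes 2203 were higher and 948 lower (19.7% called). On that scale 22 of 35 members (62.9%) were under 0.3 in absolute size, against 45.8% of all genes.

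**Figure D1:**
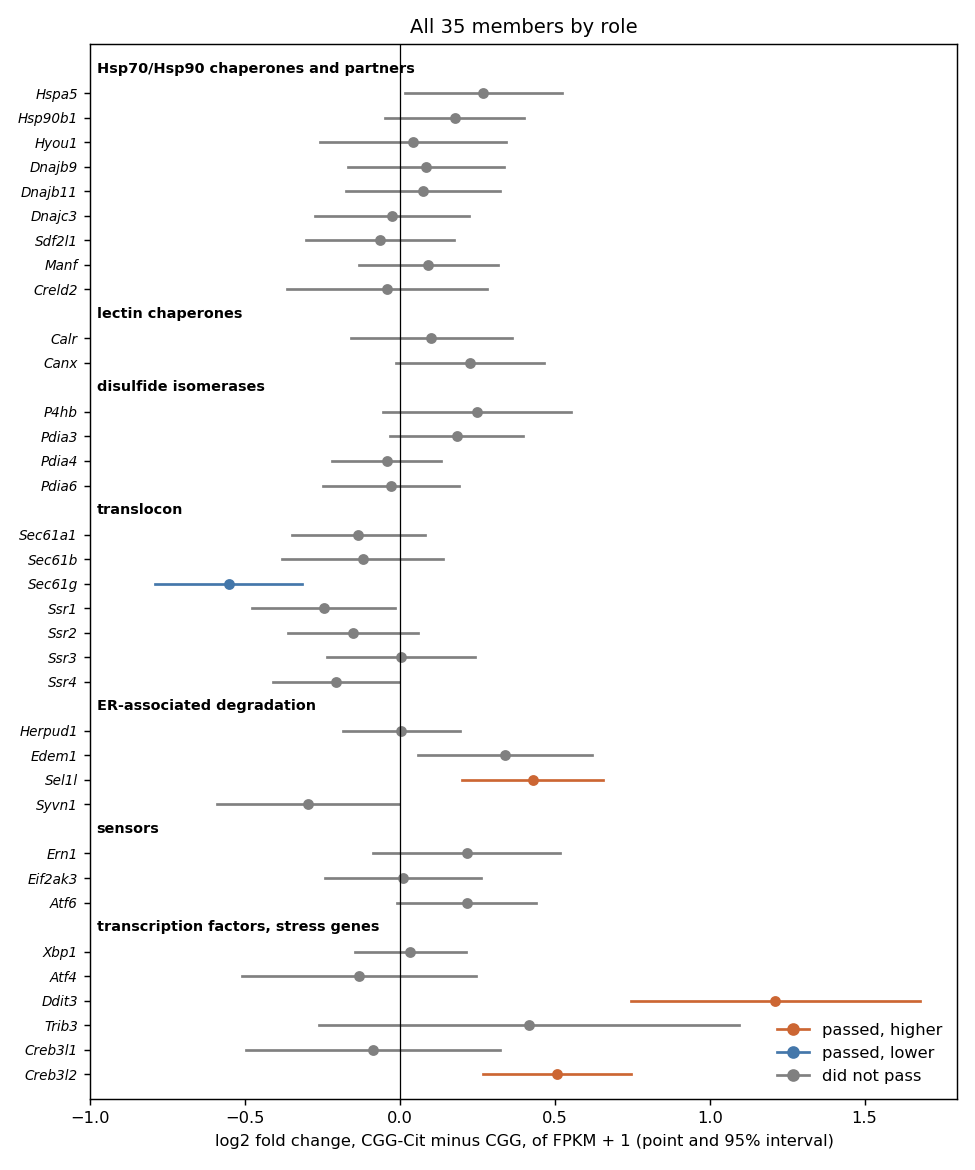
Log2 fold change of all 35 members, CGG-Cit minus CGG, of FPKM + 1, with the 95% interval from limma, grouped by role. Ddit3, Creb3l2 and Sel1l (orange) lie above 0 and Sec61g (blue) below it, and most of the other members (grey) lie within 0.3 of 0.

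Markers of several cell types differed between the gels, some by far more than any member did. Markers of skeletal muscle fibres fell in 7 of 7 tested genes (summed level 6206 to 7188 FPKM in CGG and 37.6 to 310.7 in CGG-Cit), and markers of neutrophils and their precursors in 7 of 7 (13395 to 14754 and 2109 to 5435; Ltf lay under the filter and was the single marker at 0 in any library). Red cell precursor markers fell in 5 of 5, markers of dividing cells in 6 of 6 and osteoblast markers in 5 of 10 (summed level 9216 to 13538 and 4565 to 7633 FPKM). Most of the osteoblast sum was Col1a1, at means of 7111 FPKM in CGG and 4515 in CGG-Cit, which did not pass by limma (adjusted p = 0.138). Macrophage markers rose in 7 of 8 (757.2 to 832.4 and 1374 to 2052 FPKM) and fibroblast markers in 5 of 8 (1716 to 2982 and 3555 to 4475). Of 7 plasma cell markers 1 fell and 0 rose by limma (at an unadjusted p under 0.05 1 was higher and 3 lower, and voom also called 1 lower and 0 higher), with sums of 933.3 to 1114 and 842.7 to 1085 FPKM that overlapped. Jchain, the joining chain of secreted antibodies, stood at 958.1, 1001 and 793.3 FPKM in CGG and at 854, 960 and 743.5 in CGG-Cit. Of 4 mast cell markers 1 fell, and of 3 endothelial markers 0 passed with limma (1 at an unadjusted p under 0.05, 0 with voom). In bulk RNA, fewer cells of a type and less RNA per cell cannot be told apart, and the part of these cell types in the members' differences was not tested. Depth was even, at 14744207 to 16224920 reads per library, and CGG-Cit 3 correlated with the CGG libraries at 0.937 to 0.95 across genes, against 0.908 to 0.919 for the other CGG-Cit libraries.

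Levels of the members spanned more than 2 orders of magnitude in FPKM, which is a level per gene length. Calr, a calcium-binding lectin chaperone, was the most abundant at a mean of 476.2 FPKM over the 6 libraries, above 99.1% of the genes tested. P4hb (337.4), Pdia3 (309), Hspa5 (207.5) and Hsp90b1 (194.3) followed. The sensors were far lower, with Atf6 at 22.4, Eif2ak3 at 11.5 and Ern1 at 6.36 FPKM, and Trib3, a pseudokinase induced late in stress, was lowest at 2.64 FPKM. Within a group the coefficient of variation had a median of 9.24% in CGG and 6.25% in CGG-Cit. Xbp1 varied least, at 1.82% and 0.804%, and Trib3 most, at 31.4% and 47.6%.

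**Figure D2:**
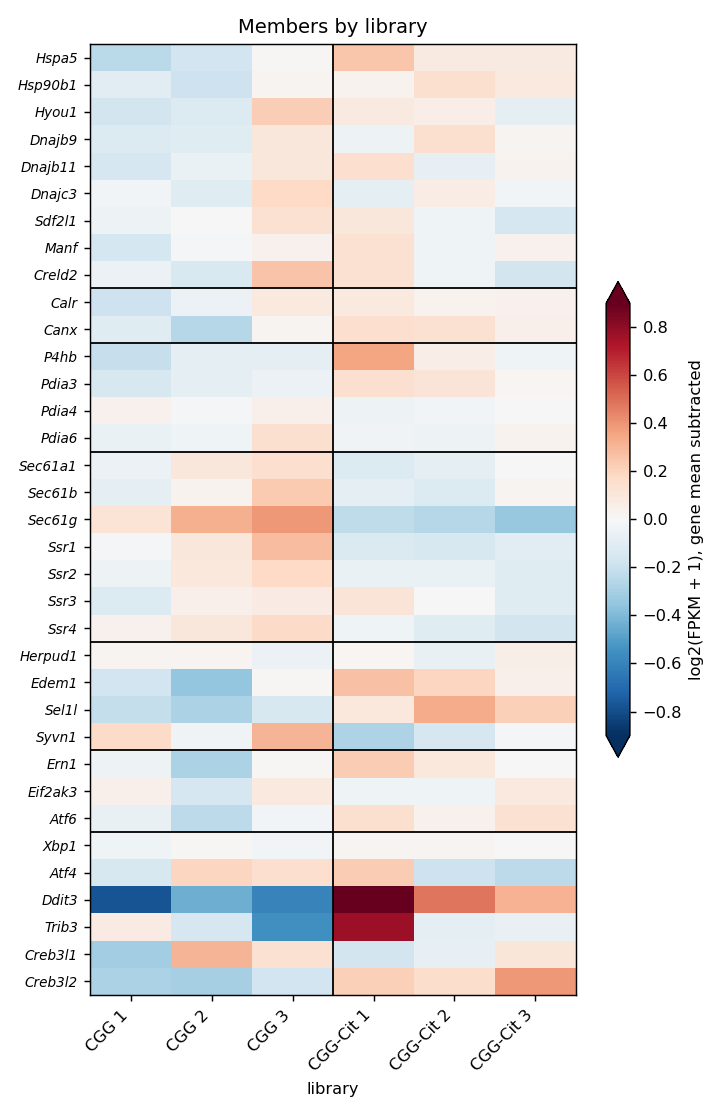
Levels of the 35 members in each library as log2(FPKM + 1) with the gene's mean over the 6 libraries subtracted, in the order of the roles (black lines). Ddit3 and Creb3l2 are low in all 3 CGG libraries and high in all 3 CGG-Cit libraries, Sec61g the reverse, and CGG 3 has the highest CGG value in 28 of 35 members.

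Among the chaperones of the Hsp70 and Hsp90 type and their partners, 0 of 9 passed with limma (0 with voom, and 1 at an unadjusted p under 0.05). Hspa5, which encodes BiP, the Hsp70 of the ER and the classic target of the response, stood at 174.5, 182.5 and 207.7 FPKM in CGG 1, 2 and 3 and at 245.1, 217.8 and 217.6 in CGG-Cit 1, 2 and 3. The groups did not overlap, but the gap between CGG 3 and the lowest CGG-Cit library was small, and the log2 fold change of 0.27 ± 0.106 (SE; 95% interval 0.02 to 0.52) had an adjusted p of 0.125. It passed only after rescaling to TPM, among the alternatives tried (0.45, adjusted p = 0.0397). Hsp90b1, the ER member of the Hsp90 family, stood at 180.1, 170.3 and 197 FPKM in CGG and at 197.6, 214.2 and 206.4 in CGG-Cit. CGG 3 and CGG-Cit 1 were almost level, and the adjusted p was 0.229. The co-chaperones and smaller factors were flatter still. Dnajb9 and Dnajc3, both J-domain partners of BiP, had log2 fold changes of 0.08 and -0.03, and Dnajb11, a further J-domain protein, 0.07. Hyou1, a large Hsp70 relative that exchanges the nucleotide of BiP, averaged 34 ± 5.32 FPKM with CGG and 34.8 ± 2.21 with CGG-Cit (SD, n = 3 each). Manf, Creld2 and Sdf2l1, small ER proteins induced by stress, had log2 fold changes of 0.09, -0.04 and -0.06. For these 7 genes the intervals ran from -0.36 at the lowest to 0.34 at the highest.

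The lectin chaperones Calr and Canx hold glycoproteins while they fold, and 0 of 2 passed with limma (0 with voom, and 0 at an unadjusted p under 0.05). Calr stood at 417, 457.6 and 505.9 FPKM in CGG and at 504.1, 484.9 and 487.8 in CGG-Cit, so that CGG 3 was the highest of the 6 libraries. Canx, the membrane-bound partner of Calr, stood at 122.6, 110.7 and 134.5 FPKM in CGG and at 147.2, 145.6 and 136.5 in CGG-Cit, without overlap between the groups (log2 fold change 0.22, 95% interval -0.01 to 0.46, adjusted p = 0.162).

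Of the 4 disulfide isomerases, enzymes that make and rearrange disulfide bonds, 0 passed with limma (0 with voom, and 0 at an unadjusted p under 0.05). P4hb, which also serves as a subunit of collagen prolyl 4-hydroxylase, stood at 289.6, 316.3 and 316.1 FPKM in CGG and at 427.6, 348.9 and 326.1 in CGG-Cit. Its groups did not overlap, and CGG-Cit 1 stood well above the rest (log2 fold change 0.25 ± 0.127, SE; adjusted p = 0.213). Pdia3, which works with the lectin chaperones, stood at 279.1, 292.1 and 297.1 FPKM in CGG and at 340.3, 333.6 and 312 in CGG-Cit, again without overlap (0.18, 95% interval -0.03 to 0.40, adjusted p = 0.198, and 0.0477 after rescaling to TPM). Pdia4 averaged 80.6 ± 1.91 and 78.2 ± 1.45 FPKM (SD, n = 3 each) and Pdia6 163.2 ± 12.8 and 159.4 ± 4.66, both with estimates within 0.05 of 0. The sum over the chaperones and co-chaperones was 666.2 to 772.3 FPKM in CGG and 750.2 to 801.2 in CGG-Cit, and that over the isomerases 804.8 to 872.9 and 882.5 to 1002.

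The 7 ERSE genes printed above, Hspa5, Hsp90b1, Dnajc3, Creld2, Calr, Canx and Xbp1, thus include no gene that passed. With the ERSE-II genes they make 10 members, with log2 fold changes of -0.04 to 0.27 and adjusted p of 0.125 to 0.978. The other 19 members in the promoter table include all 4 that passed, and none of the 4 held any of the 4 motifs, as spelled, in the window. Of the 10 members 0 passed and of the other 19 members 4, beside 17.5% of all genes tested. The difference between these sets was not tested. The 250 bases before the start are shown for Hspa5, whose ERSE (in capitals) ends 25 bases before the start. They are also shown for Ddit3, the member with the largest difference, in which none of the 4 motifs was found as spelled. The other strand of the Ddit3 stretch does read CCAAT and, at the spacing of the ERSE, GCACG in place of CCACG. Such near matches were not counted in any window.
Hspa5 (chr3:38452766-38453015, plus strand): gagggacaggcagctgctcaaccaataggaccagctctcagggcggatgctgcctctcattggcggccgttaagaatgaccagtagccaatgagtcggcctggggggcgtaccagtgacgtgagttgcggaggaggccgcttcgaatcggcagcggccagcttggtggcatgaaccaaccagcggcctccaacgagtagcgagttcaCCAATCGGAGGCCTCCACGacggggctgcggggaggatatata
Ddit3 (chr7:65001445-65001694, plus strand): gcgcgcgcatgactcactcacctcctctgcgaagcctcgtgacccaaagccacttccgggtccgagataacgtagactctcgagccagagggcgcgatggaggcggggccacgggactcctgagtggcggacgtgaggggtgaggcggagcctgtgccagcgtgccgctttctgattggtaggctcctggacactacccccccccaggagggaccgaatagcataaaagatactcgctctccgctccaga
The absence of these letters from a window says nothing about other sites or about binding.

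Most translocon genes had estimates on the other side of 0. Sec61a1, Sec61b and Sec61g form the Sec61 channel, and Ssr1 to Ssr4 form the translocon-associated complex (TRAP) that helps some nascent chains to enter it. Of these 7 genes 1 fell (14.3%, against 17.5% of all genes called in either direction). Estimates were below 0 in 6 of the 7 and in 7943 of the 15965 genes tested, and the median log2 fold change of the 7 was -0.15. Sec61g, the small gamma subunit (ENSRNOG00000005203, listed at chromosome 14, 99774589 to 99780964), stood at 154.9, 176.9 and 185.9 FPKM in CGG and at 120.7, 118.8 and 111.5 in CGG-Cit. Every CGG-Cit library lay below every CGG library. It averaged 172.6 ± 16 and 117 ± 4.83 FPKM (SD, n = 3 each), 1.48-fold lower in CGG-Cit, with a log2 fold change of -0.55 ± 0.0995 (SE; adjusted p = 0.0192). The call ended without CGG 2 (0.0581), CGG 3 (0.0707) or CGG-Cit 2 (0.067), at log2 fold changes of -0.56 to -0.50, and its 812 to 1254 reads per library are among the lower totals of the members.

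The other channel subunits followed Sec61g only in sign. Sec61a1, the pore subunit, averaged 79.4 ± 5.72 and 72.1 ± 3.04 FPKM, and Sec61b 107.5 ± 12.6 and 98.4 ± 5.33 (SD, n = 3 each), and neither passed (adjusted p = 0.325 and 0.467). The ratio of Sec61g to Sec61b, both as FPKM, was 1.61, 1.69 and 1.53 in the CGG libraries, in order of number, and 1.25, 1.26 and 1.07 in the CGG-Cit libraries, and the difference between the subunits was not tested. Ssr1, the alpha subunit of TRAP, stood at 58.7, 63.6 and 71.8 FPKM in CGG and at 54, 53.3 and 55.2 in CGG-Cit. These groups did not overlap, and CGG 3 stood above the other CGG libraries (log2 fold change -0.25, 95% interval -0.48 to -0.02, adjusted p = 0.124). Ssr2 and Ssr4 were also lower in every CGG-Cit library than in any CGG library, at -0.15 and -0.21 (adjusted p = 0.266 and 0.136), while Ssr3 was level at 66.2 ± 4.93 and 66.3 ± 5.33 FPKM. The sum over the 7 genes was 657.2 to 772.6 FPKM in CGG and 599.5 to 618 in CGG-Cit. After rescaling to TPM the estimates of Sec61a1, Sec61b and Ssr2 were above 0, at 0.04, 0.05 and 0.02. Markers of skeletal muscle fibres, neutrophils, red cell precursors, dividing cells and osteoblasts were lower in the same libraries, and their part in the fall of Sec61g was not tested.

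ER-associated degradation (ERAD) returns misfolded proteins to the cytosol, and 1 of its 4 members rose. In so short a list that is 25%, against 17.5% of all genes called in either direction. Sel1l, the adaptor of the main ubiquitin ligase complex (ENSRNOG00000004464, listed at chromosome 6, 115572649 to 115616859), stood at 25.1, 23.8 and 26.3 FPKM in CGG and at 31.3, 37.1 and 34 in CGG-Cit. The groups did not overlap. It rose from 25.1 ± 1.25 to 34.1 ± 2.88 FPKM (SD, n = 3 each), 1.36-fold, with a log2 fold change of 0.43 ± 0.0953 (SE; adjusted p = 0.0292). Leaving out any single library other than CGG-Cit 1 ended this call, with adjusted p of 0.0516 without CGG-Cit 3 to 0.0995 without CGG-Cit 2.

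Edem1, a lectin that passes glycoproteins to degradation, stood at 52.4, 46.3 and 59.7 FPKM in CGG and at 71.2, 67.9 and 61.2 in CGG-Cit. Its groups were apart by a small gap between CGG 3 and CGG-Cit 3 (log2 fold change 0.34 ± 0.118, SE; adjusted p = 0.0937, and 0.0464 after rescaling to TPM). Syvn1, the ubiquitin ligase Hrd1 that binds Sel1l, averaged 19.6 ± 2.37 and 15.7 ± 1.56 FPKM (SD, n = 3 each; log2 fold change -0.30, adjusted p = 0.139). The ratio of Sel1l to Syvn1 was 1.27, 1.39 and 1.2 in the CGG libraries, in order of number, and 2.2, 2.37 and 1.96 in the CGG-Cit libraries. This ratio sets a gene that passed over a gene that did not, and it was not tested. Syvn1 overlaps Mrpl49 on the other strand, which averaged 10.5 and 17.3 FPKM, and without a stated strand setting their reads cannot be told apart. Herpud1, a membrane protein of the same complex and a sensitive target of stress, was level at 45.1 ± 1.4 and 45.3 ± 1.92 FPKM (95% interval of the log2 fold change -0.18 to 0.19).

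None of the 3 sensors passed with limma (0 of 3, with 0 by voom and 0 at an unadjusted p under 0.05). Atf6 stood at 21.3, 18.8 and 22 FPKM in CGG and at 24.8, 22.9 and 24.6 in CGG-Cit, without overlap but with an adjusted p of 0.155 (log2 fold change 0.21, 95% interval -0.01 to 0.44). Ern1, the IRE1 kinase and nuclease that splices Xbp1, stood at 6.09, 5.01 and 6.36 FPKM in CGG and at 7.59, 6.81 and 6.32 in CGG-Cit, where CGG-Cit 3 lay just under CGG 3 (adjusted p = 0.272). Eif2ak3, the PERK kinase, averaged 11.4 ± 1.08 and 11.5 ± 0.624 FPKM (SD, n = 3 each; 95% interval of the log2 fold change -0.24 to 0.26).

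The largest difference among the members was in Ddit3, which encodes CHOP, a transcription factor of prolonged stress (ENSRNOG00000006789, listed at chromosome 7, 70580198 to 70585084). It stood at 20.4, 26.1 and 23.2 FPKM in CGG 1, 2 and 3 and at 73.5, 50.2 and 44.7 in CGG-Cit 1, 2 and 3. Every CGG-Cit library was well above every CGG library, and CGG-Cit 1 was highest. It rose from 23.2 ± 2.84 to 56.1 ± 15.3 FPKM (SD, n = 3 each), 2.42-fold, with a log2 fold change of 1.21 ± 0.195 (SE; adjusted p = 0.0158), from 301 to 1039 reads per library. The adjusted p was 0.0628 without CGG 3 and 0.0544 without CGG-Cit 2, at log2 fold changes of 1.22 and 1.27, and the call held in the other 16 alternative fits. Mars, which overlaps Ddit3 on the other strand, averaged 24.3 and 21.9 FPKM (adjusted p = 0.415). Macrophage and fibroblast markers were higher in the same libraries, and their part in the rise of Ddit3 was not tested.

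Creb3l2, a membrane-bound relative of ATF6 that is cleaved and then raises genes of secretion, was the other factor that rose (ENSRNOG00000012826, listed at chromosome 4, 64869026 to 64981384). It stood at 12.3, 12.1 and 13.4 FPKM in CGG and at 17.8, 17.1 and 20.2 in CGG-Cit. The groups lay well apart and each was narrow. The means were 12.6 ± 0.689 and 18.3 ± 1.62 FPKM (SD, n = 3 each), 1.46-fold higher, with a log2 fold change of 0.51 ± 0.1 (SE; adjusted p = 0.0233). Leaving out any single library other than CGG-Cit 3 ended its call (adjusted p = 0.0551 to 0.0678, log2 fold change 0.48 to 0.55). Creb3l1, its close relative, known as OASIS and active in osteoblasts, averaged 46.4 ± 9.99 and 43.1 ± 4.3 FPKM and did not pass (log2 fold change -0.09, 95% interval -0.50 to 0.32, adjusted p = 0.753). The ratio of Creb3l2 to Creb3l1 was 0.346, 0.221 and 0.275 in the CGG libraries, in order of number, and 0.45, 0.407 and 0.422 in the CGG-Cit libraries. It too sets a gene that passed over a gene that did not, and was not tested. Osteoblast markers were lower and fibroblast markers higher in CGG-Cit, and their part in these values was not tested.

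**Figure D3:**
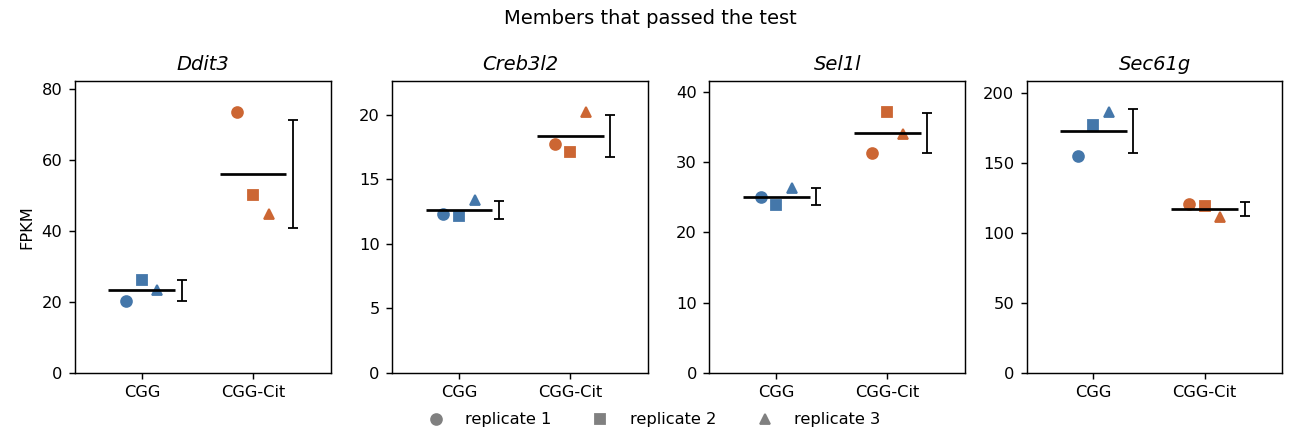
FPKM of the 4 members that passed, in each library (symbols mark the replicate number), with the group mean (line) and ± 1 SD (bar). Ddit3, Creb3l2 and Sel1l are higher in all 3 CGG-Cit libraries than in any CGG library, and Sec61g is lower in all 3.

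Xbp1, Atf4 and Trib3 were level or variable. Xbp1 stood at 127.3, 131.9 and 129 FPKM in CGG and at 133, 133.1 and 131.2 in CGG-Cit, the narrowest spread of any member (95% interval of the log2 fold change -0.15 to 0.21). Atf4, whose protein activates Ddit3, stood at 110.1, 139.3 and 135.3 FPKM in CGG and at 142.5, 106.7 and 103.3 in CGG-Cit, overlapping widely (log2 fold change -0.13 ± 0.158, SE; adjusted p = 0.589). The ratio of Ddit3 to Atf4 was 0.185, 0.187 and 0.172 with CGG and 0.516, 0.471 and 0.433 in CGG-Cit. Ddit3 passed and Atf4 did not, and their ratio was not tested. Trib3, a target of CHOP and ATF4, stood at 2.69, 2.15 and 1.39 FPKM in CGG and at 4.97, 2.31 and 2.34 in CGG-Cit, where CGG-Cit 1 alone was above CGG 1 (adjusted p = 0.337). It rests on 41 to 147 reads per library.

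CGG 3 carried the highest level of its group in 28 of 35 members and CGG 1 the lowest in 21. Among the CGG-Cit libraries CGG-Cit 1 was highest in 19 of 35 and CGG-Cit 3 in 10. When log2(FPKM + 1) of each member was centred on its own mean and averaged over the 35 members, the result was -0.10, -0.07 and 0.05 for the CGG libraries in order of number and 0.10, 0.02 and 0.01 for the CGG-Cit libraries. CGG 3 thus lay among the CGG-Cit libraries on this mean. Summed over the members, the CGG libraries averaged 3367 ± 222.4 FPKM and the CGG-Cit libraries 3523 ± 147.8 (SD, n = 3 each).

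Further genes of the secretory pathway were taken from 6 lists of 137 symbols, of which 132 matched the table and 130 were tested. In these lists 9 genes rose and 5 fell (10.8%, against the 17.5% of all genes given above), with a median log2 fold change of 0.03. After rescaling to TPM 22 rose and 3 fell, beside 2203 higher and 948 lower among all genes (19.7% called). Of 27 folding helpers 1 rose and 0 fell with limma (6 higher and 1 lower at an unadjusted p under 0.05, and 1 and 0 with voom). It was Mesd, a chaperone of Wnt co-receptors, at 35.8, 39.1 and 38.5 FPKM with CGG and at 50.2, 52.9 and 52.1 with CGG-Cit (adjusted p = 0.0191). The groups lay well apart, but the call ended without any of the CGG libraries or CGG-Cit 2 (up to 0.0708). Of 25 genes of targeting, translocation and N-glycosylation 0 passed with limma (0 with voom, and 7 at an unadjusted p under 0.05, 5 of them lower), with a median of -0.03. Such an unadjusted p by limma was held by 5644 of all 15965 genes tested. Of 21 genes of vesicle export and retrieval Tmed10, a cargo receptor, rose from 151.5 ± 3.13 to 197.7 ± 16.2 FPKM (SD, n = 3 each; adjusted p = 0.0386). In the same list Sar1b, the GTPase that starts the coat of export vesicles, fell from 70.7 ± 4.44 to 41.5 ± 5.59 FPKM (adjusted p = 0.0152). Without a single library other than CGG-Cit 3 Tmed10 did not pass (up to 0.123), and the call of Sar1b ended without CGG 3 (0.0551) or CGG-Cit 2 (0.0549).

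**Figure D4:**
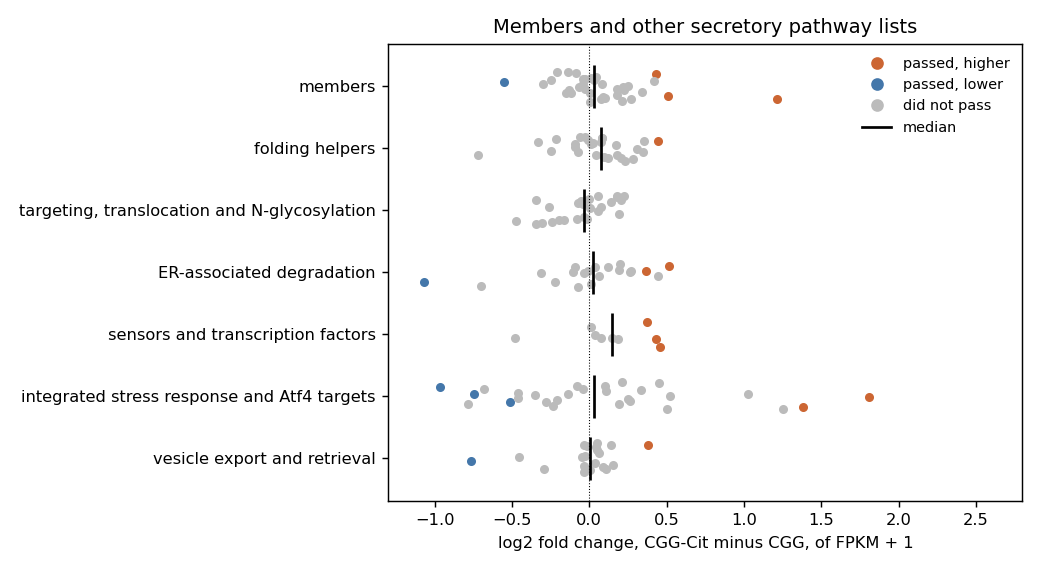
Log2 fold change (CGG-Cit minus CGG, of FPKM + 1) of the 35 members and of the tested genes of 6 other secretory pathway lists, with the list median as a line. All medians lie between -0.03 and 0.15, and the integrated stress response list has passing genes on both sides, from -0.96 to 1.81.

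Of 20 further ERAD genes 2 rose and 1 fell (15%, against 17.5% of all genes). After rescaling to TPM 6 rose and 1 fell, where 2203 of all genes were higher and 948 lower. Derl2, a membrane channel protein of ERAD, stood at 18.7, 20 and 21.3 FPKM in CGG and at 31.1, 30 and 25.8 in CGG-Cit (log2 fold change 0.51, adjusted p = 0.0247). Ube2j1, the ubiquitin-conjugating enzyme that works with Hrd1, rose by 0.37 (adjusted p = 0.041). Svip, a small inhibitor of ERAD, fell by 1.07 on the log2 scale, from 9.2 ± 1.55 to 3.93 ± 1.33 FPKM (SD, n = 3 each; adjusted p = 0.0252). The log2 fold change was 0.00 for Herpud1, -0.01 for Derl1, the relative of Derl2, and 0.04 for Vcp, the ATPase that extracts the substrates (intervals of -0.23 to 0.28 in all). Derl1 and Vcp were named after their values were seen. With 1 library left out, Derl2 passed only without CGG-Cit 3 (adjusted p otherwise up to 0.0863), Svip only without CGG 1 or CGG-Cit 3 (otherwise up to 0.0907), and Ube2j1 in 0 of these 6 fits (up to 0.133). Ube2j1 also did not pass after quantile normalization (0.0532) or with equal totals without the 50 most abundant genes (0.0503).

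Of 9 tested sensors and transcription factors outside the members 3 rose and 0 fell with limma (1 lower at an unadjusted p under 0.05, and 3 and 0 with voom). Those 3 are 33.3% of a short list, against 17.5% of all genes called in either direction and 7.75% called higher. Nfe2l1, an ER-anchored factor that raises proteasome genes, stood at 46.3, 43.8 and 39.4 FPKM in CGG and at 61.2, 60.5 and 56.7 in CGG-Cit (adjusted p = 0.0245). Creb3, a further membrane-bound relative of Creb3l2, rose by 0.38 and Crebrf, a regulator of Creb3, by 0.43 (adjusted p = 0.0476 and 0.0492). Creb3 overlaps Tln1 and Gba2 on the other strand, and neither passed (adjusted p = 0.703 and 0.136). With 1 library left out, Nfe2l1 passed only without CGG 1 or CGG-Cit 3 (adjusted p otherwise up to 0.084), Creb3 only without CGG-Cit 3 (otherwise up to 0.129), and Crebrf in 0 of the 6 fits (up to 0.15). Without the filter on low values neither Creb3 (0.0582) nor Crebrf (0.0709) passed, and Crebrf also did not with equal totals without the 50 most abundant genes (0.0597). Creb3l3 and Creb3l4 lay under the filter on low values.

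The integrated stress response is the pathway in which PERK and related kinases act through Atf4. Of 28 tested genes of its list 2 rose and 3 fell (17.9%, near the 17.5% called among all genes). After rescaling to TPM 3 rose and 1 fell, where 19.7% of all genes were called. Atf3, a transcription factor of acute stress, stood at 10.8, 11.9 and 13 FPKM in CGG and at 56.3, 49 and 30.7 in CGG-Cit, 3.82-fold higher (log2 fold change 1.81 ± 0.22, SE; adjusted p = 0.00818), and passed in all 18 alternative fits. Stc2, a secreted glycoprotein induced by ER stress, stood at 2.37, 4.81 and 2.99 FPKM in CGG and at 10, 10 and 10.4 in CGG-Cit (1.38 ± 0.202, SE; adjusted p = 0.0129). Like Ddit3, Stc2 lost its call only without CGG 3 or CGG-Cit 2 (adjusted p = 0.0578 and 0.0541).

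The 3 genes that fell encode enzymes of amino acid metabolism. Phgdh, the first enzyme of serine synthesis, stood at 17.8, 15.5 and 20.1 FPKM in CGG and at 8.85, 10.4 and 11.4 in CGG-Cit (log2 fold change -0.74 ± 0.135, SE; adjusted p = 0.0198). Asns, the asparagine synthetase, averaged 27.6 ± 2.97 and 14 ± 4.42 FPKM (SD, n = 3 each), 1.97-fold lower (adjusted p = 0.0294). Shmt2, the mitochondrial enzyme that turns serine into glycine, averaged 30.4 ± 3.45 and 20.9 ± 2 FPKM (adjusted p = 0.0318). Asns and Shmt2 were named after their values were seen, to complete the count. After rescaling to TPM neither passed (0.0515 and 0.136), nor did Asns without the filter (0.0504). With 1 library left out both passed only without CGG-Cit 3 (adjusted p otherwise up to 0.102 and 0.107), and Phgdh only without CGG 2 or CGG-Cit 3 (otherwise up to 0.0707). Markers of dividing cells fell in the same libraries in 6 of 6 genes. Those of skeletal muscle fibres, neutrophils, red cell precursors and osteoblasts were lower there too, and the part of any of these cell types in these falls was not tested. Nupr1 was set apart by 1 library: it stood at 86.1 FPKM in CGG-Cit 1 and at 2.74 to 5.7 in the other 5, and was named after its values were seen (adjusted p = 0.457).

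**Figure D5:**
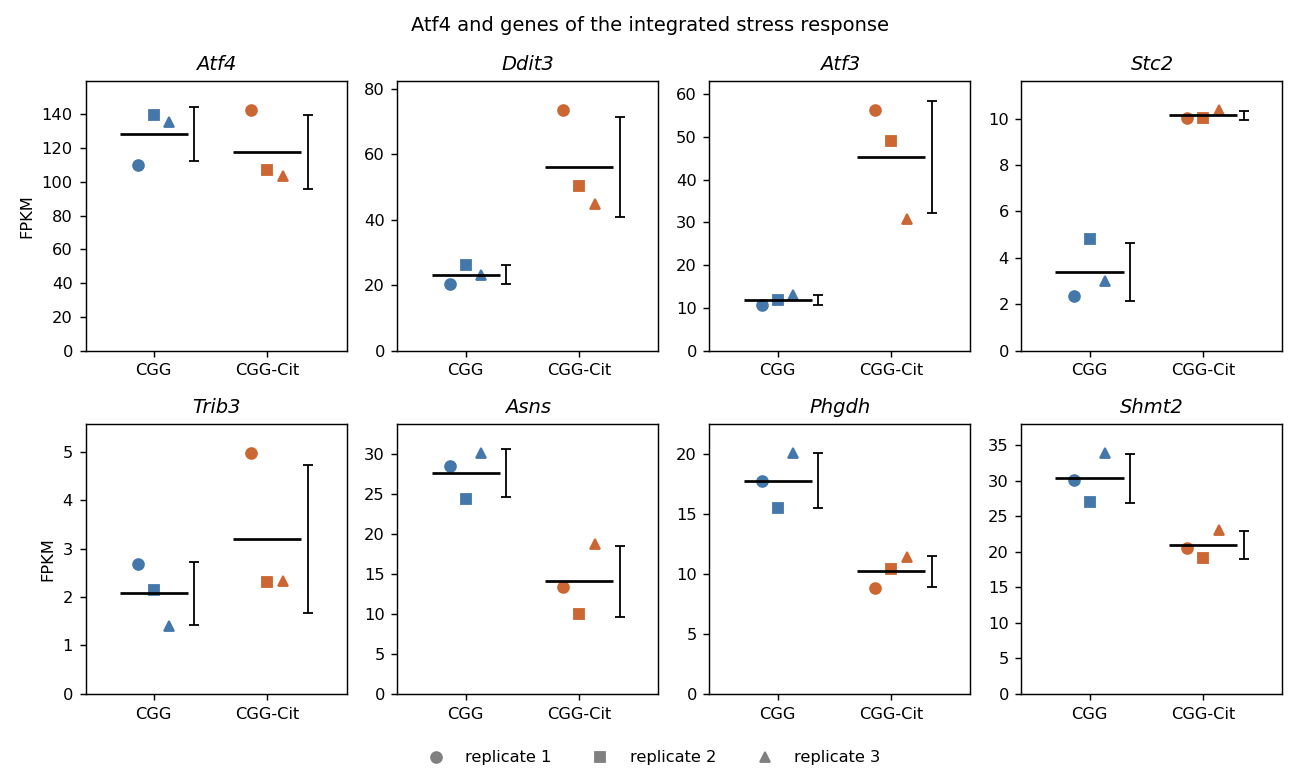
FPKM of Atf4 and of 7 genes of the integrated stress response in each library (symbols mark the replicate number), with the group mean (line) and ± 1 SD (bar). Atf4 and Trib3 overlap between the gels, Ddit3, Atf3 and Stc2 are higher in all 3 CGG-Cit libraries, and Asns, Phgdh and Shmt2 are lower in all 3.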

How the data were processed

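RNA from minced defect tissue was sequenced in read pairs, per the labels' protocols. The authors deposited FPKM per gene, and the submitters' processing notes name DESeq2 1.20.0, featureCounts 1.5.0-p3, HISAT2 2.0.5 and, as a build, mRatBN7.2, without giving their roles. The annotation release is not given in the sources used here, nor is the strand setting. FPKM times listed gene length, divided by the value of 1 read inferred for each library (0.0596 to 0.0657 FPKM at 1 kb), gave whole reads in 100% of values above 0, within 0.01 reads. Listed positions on chromosome 1 reach 282724300, past every GRCr8 gene there (highest end 270492571), and chromosome 1 of mRatBN7.2 is shorter than that of GRCr8. The listed positions thus match neither build and are printed as listed. Groups were taken from the sample titles.

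The gels were compared by limma 3.58.1 in R 4.3.3, with lmFit and trended eBayes and no block, on log2(FPKM + 1) of the 15965 genes whose mean reached 0.5 FPKM, and p-values were adjusted over all of these by the Benjamini-Hochberg method. Tables were made with Python 3.11.15 and pandas 2.3.3. The test was tried on simulated data with the same fixed dispersion (a measure of spread) for every gene. Spread between these libraries differed by gene, so that trial cannot vouch for single calls here. The members and lists were chosen with earlier results of these data known. Every member was to be described by its role: in full were the members that passed and, in a role with fewer than 2 of these, those with the smallest p; of other lists, up to 3 genes that passed with the smallest p. Symbols of 4 listed genes were matched through a RefSeq synonym on the same chromosome. Alternatives were other pseudocounts (0.1, 0.5), filters, scalings, variance estimates and weights, voom on the recovered reads, a replicate block, other thresholds and each library left out.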

Additional observations from a re-analysis of the deposited data

How the results depend on the processing

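Among the members, 3 higher and 1 lower were also called under pseudocounts of 0.1 and 0.5, both other filters, median-of-ratios, quantile and equal-total scaling, robust variance estimation, quality weights and voom. Rescaling to TPM gave 6 higher and 1 lower, a median over the members of 0.21, and 22 higher and 3 lower in the other pathway lists (of all genes 2203 higher and 948 lower, against 1237 and 1561). Quality weights called 8 lower in the other lists.

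Same-numbered libraries did not deviate together (correlations -0.0956, 0.00165 and -0.0779). No label says that the numbers pair libraries, and these correlations cannot decide it, since a shared rat or batch need not leave such a trace. With the replicate block 2 members were higher and 0 lower (adjusted p of Sel1l 0.077 and of Sec61g 0.0521), and in the other lists 4 were higher and 7 lower, against 9 and 5 without it. Derl2 (0.0699), Ube2j1 (0.082), Creb3 (0.115), Crebrf (0.109) and Tmed10 (0.0931) did not pass with the block. Of all genes 612 were then higher and 1055 lower.

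With 1 library left out, 0 to 2 members were higher and 0 to 1 lower, and in the other lists 1 to 9 were higher and 0 to 7 lower. Without CGG 3 and without CGG-Cit 2, limma called 0 members (7 and 4 at an unadjusted p under 0.05), and of all genes 1.95% and 2.49%, the lowest shares. The shares were 7.53% without CGG 1, 5.75% without CGG 2 and 6.28% without CGG-Cit 1. Without CGG-Cit 3 the share was 18.4%, beside 17.5% with all 6 libraries. Every such fit holds 1 library fewer, and the cause of the differences between these shares was not tested. All genes at an unadjusted p under 0.05 were not counted in these fits. The median over the members ranged from 0.0168 to 0.0746. At an adjusted p under 0.1 4 members were higher and 1 lower, and the other lists held 14 higher and 13 lower, beside 28.2% of all genes called. At 0.01 no member passed (0 higher and 0 lower) and the other lists held 1 higher and 0 lower, beside 1.47% of all genes.

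Members that did not pass and lay near 0 changed sign in some fits. Rescaling to TPM gave 0.15 for Dnajc3, 0.11 for Sdf2l1, 0.13 for Creld2, 0.13 for Pdia4, 0.15 for Pdia6, 0.0403 for Sec61a1, 0.0544 for Sec61b, 0.0228 for Ssr2, 0.0428 for Atf4 and 0.0876 for Creb3l1. Quantile normalization gave -0.016 for Ssr3 and -0.0081 for Herpud1, and quality weights 0.011 for Dnajc3, -0.024 for Herpud1 and -0.0102 for Eif2ak3. With 1 library left out the ranges were -0.0289 to 0.164 for Hyou1, -0.0899 to 0.0556 for Dnajc3, -0.122 to 0.0746 for Creld2, -0.0687 to 0.0324 for Pdia6, -0.0597 to 0.0582 for Ssr3, -0.0217 to 0.0373 for Herpud1, -0.0641 to 0.0568 for Eif2ak3 and -0.265 to 0.0456 for Creb3l1.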
